A study of Mus musculus with 52 samples.

Results

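Iron uptake, storage, sensing and export were followed through 10 genes in single mouse bone marrow cells. They are the transferrin receptor genes Tfrc and Tfr2, the reductase gene Steap3, the iron transporter genes Slc11a2 (DMT1) and Slc25a37 (mitoferrin-1), the ferritin genes Fth1 and Ftl1, the exporter gene Slc40a1 (ferroportin) and the regulator genes Ireb2 and Aco1. The genes were chosen by name, and all 10 were found among the 28786 gene entries of the deposited table. The libraries were made with Smart-seq2, which copies whole transcripts of 1 cell in a plate well and adds no molecular identifiers. All 52 carried the label primed HSCs (haematopoietic stem cells) and came from bone marrow of C57BL/6 mice, 6 to 8 weeks old, of the genotype Cd4-cre;R26Tdtomato, in which Cre driven from Cd4 can switch on a tdTomato reporter. The marrow came from the hind leg bones and went through red cell lysis with 0.16 M ammonium chloride. Neither the sort gate, the meaning of "primed" nor the number of animals is stated in the labels, so the data form 1 sample and cells are not replicates of a condition. No p-value was therefore computed, values after ± are the SD over cells, and a difference between classes of cells is a description of these cells.

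Iron reaches a developing red cell mostly as transferrin, which binds transferrin receptor 1 at the surface and is taken into endosomes, where STEAP3 reduces the iron and DMT1 moves it to the cytosol. Mitoferrin-1 carries it into mitochondria for haem and iron-sulphur clusters, ferritin cages made of heavy and light chains hold the surplus, and ferroportin lets it out. The regulators IRP1 (encoded by Aco1) and IRP2 (encoded by Ireb2) bind hairpins called iron-responsive elements in messenger RNAs when iron is short, which protects the Tfrc message and holds back translation of ferritin and ferroportin.

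These hairpins are shown because they are the elements through which the regulators are known to act on other members. GENCODE M21 transcripts (GRCm38) were searched for the loop CAGTGN between 5 paired bases on each side, with at most 1 G-T pair. A C was required before the stem, and whether it could pair was not checked. A match was found in 4 of the 10 genes. Tfrc held 4 matches in the 3' UTR in exon 19, and Fth1, Ftl1 and Slc40a1 held 1 each in the 5' UTR in exon 1. Of 21866 protein-coding genes, 144 (0.659%) had such a match anywhere in a transcript and 69 (0.316%) had it in a UTR. The capitals mark the 6 bases of the loop, and the sequences run 5′ to 3′ on the strand of the gene.
Tfrc, chr16:32631219-32631248, plus strand: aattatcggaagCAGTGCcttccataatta
Tfrc, chr16:32631598-32631627, plus strand: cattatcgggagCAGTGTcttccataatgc
Tfrc, chr16:32631663-32631692, plus strand: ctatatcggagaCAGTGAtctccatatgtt
Tfrc, chr16:32631710-32631739, plus strand: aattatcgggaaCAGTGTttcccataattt
Fth1, chr19:9982732-9982761, plus strand: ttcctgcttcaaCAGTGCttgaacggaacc
Ftl1, chr7:45459778-45459807, minus strand: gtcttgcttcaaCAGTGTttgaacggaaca
Slc40a1, chr1:45925464-45925493, minus strand: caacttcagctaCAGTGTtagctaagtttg

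The printed stretches of the heavy and light ferritin messages were identical at 26 of 30 bases. Tfr2, Steap3, Slc11a2, Slc25a37, Ireb2 and Aco1 had no match under this pattern, which says only that these letters are not in their annotated transcripts. Some Slc11a2 messages are known to carry an element of irregular shape in the 3' UTR, which the pattern does not describe. The read counts measured here are RNA levels and do not show the translation that the 5' UTR elements act on. Protection of the Tfrc message through its 3' UTR elements was not tested.

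Of the 52 cells, 49 were kept, by a minimum of 50000 reads and 1000 detected genes and a limit of 20% on mitochondrial reads. They held a median of 2187579 reads (85519 to 12446477) and 7041 genes with a read (1527 to 9624). The titles of the 52 libraries carried 52 distinct codes, whose meaning the labels do not state. Klf1, an erythroid transcription factor, split them into 34 Klf1-high cells (at least 200 CPM, that is, reads divided by the total of the cell and set to a common scale) and 15 Klf1-low cells. The highest Klf1-low cell had 197 CPM of Klf1 and the lowest Klf1-high cell 402. Cd34, a progenitor surface gene, was at least 10 CPM in 14 cells, and 13 of these were Klf1-low, so the Klf1 and Cd34 splits divide nearly the same cells. The 2 Klf1-low cells without Cd34 were cell 9, with 7741 CPM of summed B cell markers, and cell 34, with 50875 CPM of summed neutrophil and monocyte markers. Klf1-high cells were sequenced more deeply, with a median of 2993790 reads against 780369. They also held more genes with a read, at a median of 7477 against 5156. The 6 stem cell markers (Meis1, Hlf, Mecom, Procr, Ly6a and Slamf1) summed to 59.8 ± 140 CPM in Klf1-high cells and 708.4 ± 549 CPM in Klf1-low cells, so markers of the labelled cell type were low in the larger class. The 6 early erythroid markers, Klf1 among them, summed to 13004 ± 3988 and 3082 ± 3063 CPM, and the 10 mitosis genes to 2168 ± 1321 and 419 ± 506 CPM. Late erythroid genes were low, at 108 ± 171 CPM summed over 8 genes in Klf1-high cells. Depth, the number of genes read, mitotic genes and the erythroid and stem cell markers thus moved with the Klf1 split. The part of the number of genes read and of the mitotic and marker genes in the differences below was not tested. For depth, values with each cell thinned to the same number of reads are given below. Thinning makes the reads equal and not the number of genes that a library captured.

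Each of the 10 genes was read in 50% or more of the kept cells, as were 69.9% of the 9874 genes that averaged 5 CPM or more, and 8 of them were at 10 CPM or more in at least 50% of the cells. Fth1 and Ftl1 were read in all 49 cells. A Klf1-high cell held reads of a median of 9 of the genes (range 7 to 10) and a Klf1-low cell of 7 (range 3 to 10). With each cell thinned to 85519 reads, the depth of the shallowest, the medians were 9 and 5.

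Levels between the genes were compared per kilobase of the annotated transcript. Ftl1 stood at 2695 ± 1684 CPM per kb and Fth1 at 1704 ± 731, far above the other 8 genes. Tfr2 followed at 124 ± 97.9 CPM per kb, then Steap3 at 59.2 ± 54.7, Slc11a2 at 35.8 ± 37.01, Tfrc at 25.1 ± 23.3, Aco1 at 21.8 ± 24.9, Slc40a1 at 17.5 ± 20.5, Slc25a37 at 9.61 ± 18.6 and Ireb2 at 3.11 ± 5.47. Of the 9 pairs of neighbours in this order, 8 differed by less than the larger SD over cells, and only the step from Fth1 to Tfr2 exceeded it. With the longest coding transcript of each gene as its length, Slc11a2 and Tfrc changed places.

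In the comparison of mean CPM between Klf1 classes, with 1 CPM added to each mean, 4 of the 10 genes were at least 2-fold higher in Klf1-high cells. They were Slc40a1, Steap3, Slc11a2 and Tfrc, and none was 2-fold lower. Of the 9874 genes, 22.3% were 2-fold higher and 23.6% were 2-fold lower. The median log2 ratio was 0.51 over the 10 genes and 0.03 over all genes tested. The 4 calls held with any 1 cell left out. With each cell thinned to 85519 reads, the log2 ratios were 1.64 for Tfrc, 2.86 for Steap3, 1.71 for Slc11a2 and 3.65 for Slc40a1, all past 2-fold. By the difference of mean log2(CPM + 1), which weights cells near 0 more, 7 genes passed 2-fold, the 4 and Tfr2, Aco1 and Ireb2. By the ratio of medians 7 passed too, the 4 and Slc25a37, Aco1 and Ireb2.

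**Figure D1:**
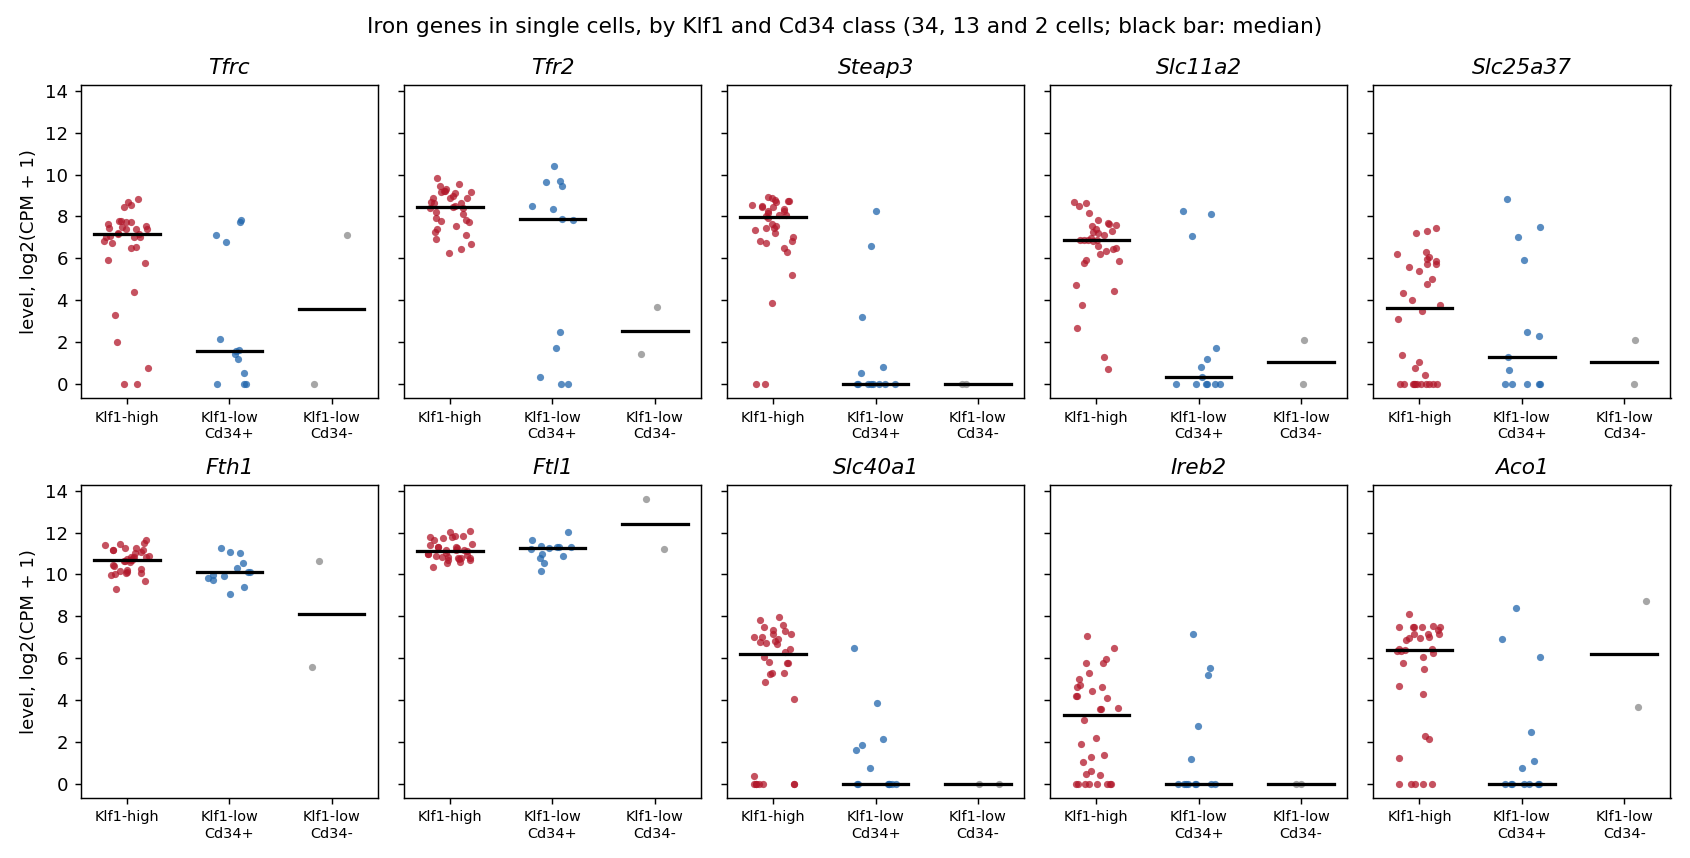
Level of each gene as log2(CPM + 1) in the 34 Klf1-high cells, the 13 Klf1-low Cd34-positive cells and the 2 Klf1-low Cd34-negative cells. Each point is 1 cell and each black bar is the median, and Steap3 and Slc40a1 had a median of 0 in the middle group while Fth1 and Ftl1 were read in every cell.

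The receptor genes differed from each other. Positions of the 10 genes are on GRCm38, with the exons of the transcript whose length was used. Tfrc (ENSMUSG00000022797, chr16:32608920-32632794, plus strand, 19 exons) encodes transferrin receptor 1, the main route of iron into erythroid cells. It ranged from 0 to 451 CPM with a median of 143 in Klf1-high cells and from 0 to 223 CPM with a median of 1.97 in Klf1-low cells. The highest cell was cell 24 and 6 cells had no read. At 10 CPM or more were 29 of the 34 Klf1-high cells and 5 of the 15 Klf1-low cells. The classes overlapped through those 5 and through the Klf1-high cells below 10 CPM. The means were 153 ± 114 and 55.2 ± 83.5 CPM, which is 2.73-fold (2.55 to 3.48 with any 1 cell left out). The log2 ratio was 1.45, and 2.10 with Klf1 split at 50 CPM. Tfrc was read in 94.1% of Klf1-high cells (95% Clopper-Pearson interval 80.3 to 99.3) and 73.3% of Klf1-low cells (44.9 to 92.2). After thinning, these shares were 88.2% (72.5 to 96.7) and 40% (16.3 to 67.7). All such intervals cover counting error only, since reads copied by PCR and not marked by molecule are not independent.

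Tfr2 (ENSMUSG00000029716, chr5:137569840-137587481, plus strand, 20 exons) encodes transferrin receptor 2, a receptor of lower affinity that also binds the erythropoietin receptor in erythroid cells. Every Klf1-high cell had it, from 74.1 to 929 CPM with a median of 352. Klf1-low cells ranged from 0 to 1361 CPM with a median of 228, and the highest of all 49 was cell 26, a Klf1-low cell. The Klf1-low cells reached both below and above the Klf1-high range, with 9 of 15 at 10 CPM or more, among them cell 9 on 1 read. The means were alike at 378 ± 212 and 323 ± 416 CPM, which is 1.17-fold (1.09 to 1.52 with any 1 cell left out). The mean of log2(CPM + 1) was nevertheless 2.88 higher in Klf1-high cells, because that scale gives more weight to the Klf1-low cells near 0.

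Per kilobase, Tfr2 was above Tfrc in 42 of 49 cells. Tfr2 was at 10 CPM or more in all 34 Klf1-high cells, so there the count with both receptors is the count with Tfrc. In Klf1-low cells, 9 had Tfr2 and 5 had Tfrc at that level. A joint pattern of the receptors beyond these counts was not tested. Of the 34 Klf1-high cells, 29 had both at 10 CPM or more and 5 had Tfr2 alone. Of the 15 Klf1-low cells, 8 had Tfr2 alone, 4 had Tfrc alone, 2 had neither, and cell 47 had both (109 CPM of Tfrc and 818 CPM of Tfr2). Among the 8 was cell 9, which passed 10 CPM on 1 read of Tfr2 in a library of 85519 reads. The Tfrc-only cells were cells 7, 21, 34 and 51, with Tfrc from 137 to 223 CPM and Tfr2 at no more than 4.49 CPM. The Spearman correlation of the receptors was -0.11 over 49 cells, -0.08 over the Klf1-high cells and -0.34 over the Klf1-low cells.

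**Figure D2:**
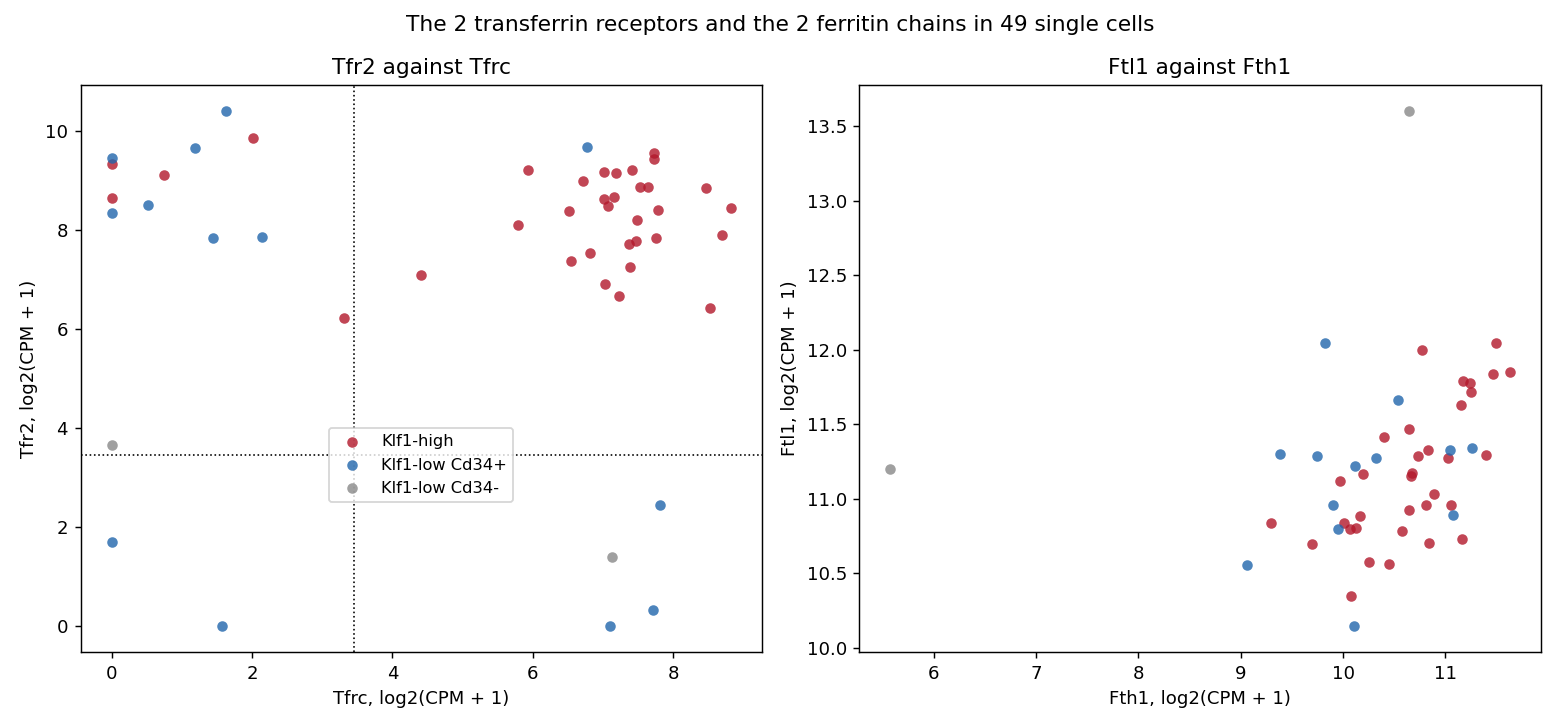
Left, Tfr2 against Tfrc, and right, Ftl1 against Fth1, as log2(CPM + 1) in 49 cells coloured by class, with dotted lines at 10 CPM on the left. The upper right of the left plot holds 29 Klf1-high cells and 1 Klf1-low cell, and on the right cell 34 lies highest for Ftl1 and cell 9 lowest for Fth1.

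Inside the endosome the members were higher in Klf1-high cells. Steap3 (ENSMUSG00000026389, chr1:120190757-120272705, minus strand, 5 exons) encodes the ferrireductase that turns ferric into ferrous iron after transferrin uptake. Klf1-high cells ranged from 0 to 479 CPM with a median of 250, the highest being cell 23, and only cells 3 and 50 had no read. Klf1-low cells ranged from 0 to 306 CPM with a median of 0, and 10 of 15 had no read. The only Klf1-low cells at 10 CPM or more were cell 32 (306 CPM) and cell 21 (94.99 CPM). The means were 238 ± 144 and 27.3 ± 80.8 CPM, or 8.43-fold, and 28.3-fold without cell 32. The log2 ratio was 3.08, and 2.33 with Klf1 split at a higher level. Thinned to equal depth, 91.2% of Klf1-high cells (76.3 to 98.1) and 20% of Klf1-low cells (4.33 to 48.1) had a read.

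Slc11a2 (ENSMUSG00000023030, chr15:100387898-100425072, minus strand, 17 exons) encodes DMT1, which moves ferrous iron out of the endosome. It was read in all 34 Klf1-high cells, from 0.608 to 407 CPM with a median of 117, and was highest in cell 35. Klf1-low cells ranged from 0 to 302 CPM with a median of 0.251, and cells 7, 31 and 32 were the 3 at 10 CPM or more. The classes overlapped through these 3 cells and through 3 Klf1-high cells below 10 CPM. The means were 135 ± 106 and 47.9 ± 104 CPM, which is 2.78-fold, with 4.41-fold without cell 7 and 4.18-fold without cell 32. The gene overlaps Gm5475, which had 74 reads in all 52 cells against 17206 for Slc11a2 in the kept cells, and the labels do not state the strand used in counting.

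Slc25a37 (ENSMUSG00000034248, chr14:69241848-69285112, minus strand, 4 exons) encodes mitoferrin-1, the importer of iron into erythroid mitochondria. Its Klf1-high cells ranged from 0 to 172 CPM with a median of 11.4, and its Klf1-low cells from 0 to 454 CPM with a median of 1.40. Cell 26, which also had the most Tfr2, was highest, and 17 of 49 cells had no read. The means were 33.2 ± 46.99 and 55.7 ± 123 CPM, so the mean was lower in Klf1-high cells (0.603-fold) and the median higher. Without cell 26 the mean was 1.21-fold higher in Klf1-high cells, so these cells give no stable direction for this gene.

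Ferritin was the most even pair. Fth1 (ENSMUSG00000024661, chr19:9980598-9985098, plus strand, 4 exons), the heavy chain with ferroxidase activity, ranged from 628 to 3161 CPM with a median of 1667 in Klf1-high cells, and from 46.8 to 2446 CPM with a median of 1098 in Klf1-low cells. Cell 2, the only Klf1-high cell with Cd34, was highest and cell 9 lowest. Most cells of both classes lay in the same range, and the means were 1746 ± 635 and 1216 ± 650 CPM, which is 1.44-fold (1.34 to 1.55 with any 1 cell left out). Its coefficient of variation over cells was 0.429, the lowest of the 10 genes, against 1.94 for Slc25a37, the highest.

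Ftl1 (ENSMUSG00000050708, chr7:45457944-45459884, minus strand, 4 exons), the light chain that helps form the mineral core, ranged from 1298 to 4235 CPM with a median of 2248 in Klf1-high cells. Klf1-low cells ranged from 1129 CPM in cell 32 to 12465 CPM in cell 34, with a median of 2477. The classes overlapped almost wholly apart from cell 34, where the monocyte gene Lyz2 was at 39230 CPM. The means were 2418 ± 798 and 3040 ± 2706 CPM (0.795-fold), and without cell 34 the ratio was 1.02. Per kilobase, Ftl1 exceeded Fth1 in 43 of 49 cells, with a median ratio of 1.35 in Klf1-high and 2.06 in Klf1-low cells and extremes of 0.708 in cell 19 and 48.2 in cell 9, which had 4 reads of Fth1. Ferritin genes have many processed copies. The 13 ferritin-like entries in the table had 37 reads in all 52 cells, against 219594 for Fth1 and 298941 for Ftl1.

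Slc40a1 (ENSMUSG00000025993, chr1:45908068-45926523, minus strand, 8 exons) encodes ferroportin, the known route of iron export. It ranged from 0 to 246 CPM with a median of 72.0 in Klf1-high cells and from 0 to 88.7 CPM with a median of 0 in Klf1-low cells. Cell 24, the highest for Tfrc, was also highest here. Of the Klf1-high cells, 26 had 10 CPM or more and 7 had no read. Only cells 21 and 52 of the Klf1-low class reached 10 CPM. The means were 81.9 ± 70.7 and 7.38 ± 22.8 CPM, or 9.89-fold, and 32.2-fold without cell 21. The log2 ratio was 3.31, but 1.18 with all 52 cells, since cell 10, left out for its low depth, had 428 CPM, and 4.67 with Klf1 split at 50 CPM. Ferroportin is also a gene of macrophages that recycle iron. Of 11 macrophage genes, Adgre1 and Cd5l had no read in a kept cell and the other 9 had reads, among them Spic in 26 cells, Cd163 in 18 and C1qb in 8. Their sum ranged from 0 to 241 CPM in Klf1-high cells, with a mean of 31.1 ± 54.7. In Klf1-low cells it ranged from 0 to 1247 CPM, reached in cell 34, with a mean of 138 ± 314, and the Klf1-low Cd34-positive cells, which leave that cell out, were at 63.2 ± 70.3 CPM. The part of macrophage RNA in the Slc40a1 levels was not tested.

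Of the regulators, Ireb2 was the lowest of the 10 genes per kilobase and Aco1 was not. Aco1 (ENSMUSG00000028405, chr4:40143081-40198338, plus strand, 21 exons), whose protein is an aconitase when it holds an iron-sulphur cluster and the RNA-binding IRP1 when it does not, ranged from 0 to 274 CPM with a median of 83.8 in Klf1-high cells and from 0 to 429 CPM with a median of 0.656 in Klf1-low cells. Cell 34 was highest. The means were 91.9 ± 72.9 and 64.4 ± 135 CPM, or 1.42-fold, which became 2.36-fold without cell 34 and 2.02-fold without cell 52. Ireb2 (ENSMUSG00000032293, chr9:54863789-54912530, plus strand, 22 exons), whose protein IRP2 is degraded when iron is plentiful, ranged from 0 to 131 CPM with a median of 8.99 in Klf1-high cells and from 0 to 142 CPM with a median of 0 in Klf1-low cells, the highest being cell 16. Its means were 19.1 ± 28.96 and 15.3 ± 37.8 CPM (1.23-fold), and 2.75-fold without cell 16. Aco1 was above Ireb2 per kilobase in 34 of 49 cells. Both were at 10 CPM or more in 16 cells, Aco1 alone in 15 (cell 9 on 1 read), Ireb2 alone in 4 and neither in 14.

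**Figure D3:**
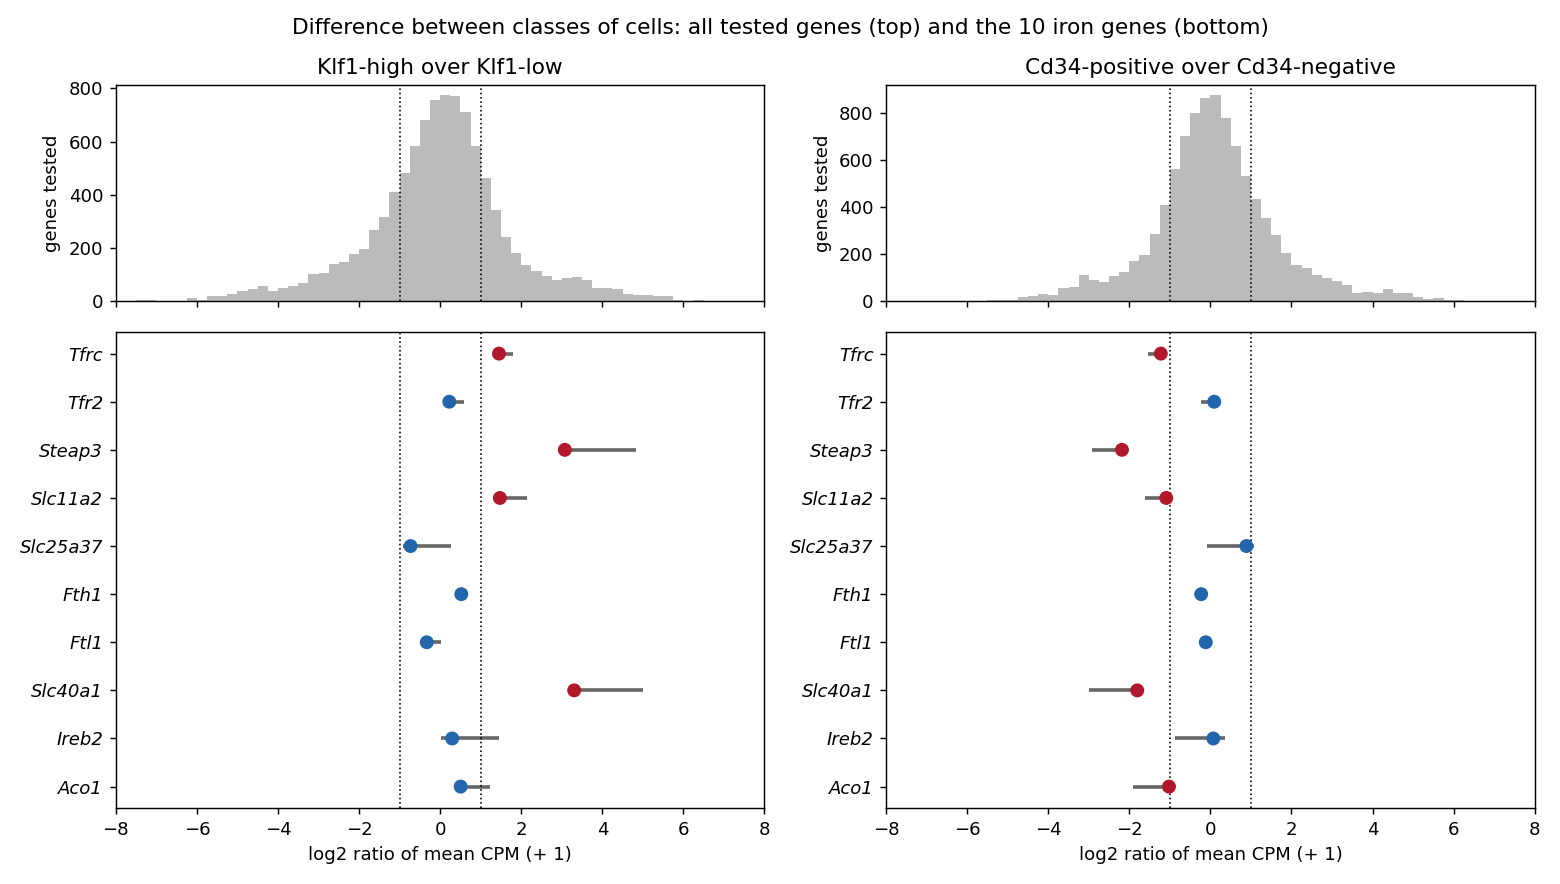
Top, number of tested genes by log2 ratio of mean CPM (+ 1) between classes. Bottom, the ratio of each iron gene (point, red where past 2-fold) and its range with any 1 cell left out (line), with dotted lines at 2-fold. Steap3 and Slc40a1 lie farthest from 0, and the lines of Slc25a37 and Ftl1 cross 0 on the left.

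The Cd34 split divides nearly the same cells as the Klf1 split, so its values are not independent of those above. None of the 10 genes was 2-fold higher in the 14 Cd34-positive cells, where 22.8% of tested genes were, and 5 were 2-fold lower, where 18.6% were. Steap3 was 48.5 ± 104 CPM in Cd34-positive cells and 223 ± 152 in Cd34-negative cells (4.54-fold lower, 6.90-fold without cell 2 and 7.56-fold without cell 32). Slc40a1 was 20.6 ± 51 and 74.5 ± 70.2 CPM (3.49-fold lower, 7.93-fold without cell 2), and Tfrc was 62.3 ± 89.2 and 147 ± 115 CPM (2.33-fold lower). Slc11a2 (2.13-fold lower) and Aco1 (2.03-fold lower) stood so near to 2-fold that leaving out any of 12 cells for Slc11a2 and any of 19 for Aco1 took them under it, with a lowest fold of 1.98 and 1.83. Aco1 was 3.74-fold lower without cell 52. With Cd34 split at 1 read or more, neither passed 2-fold, at log2 ratios of -0.44 for Slc11a2 and -0.28 for Aco1. Tfrc also fell under 2-fold at that split, at a log2 ratio of -0.96. Cell 2, which had both Klf1 and Cd34, had all 10 genes at 10 CPM or more, among them 185 CPM of Tfrc, 464 of Tfr2, 269 of Steap3 and 178 of Slc40a1. So did 5 of the 33 Klf1-high cells without Cd34. Cell 2 held 7481542 reads and 9624 genes with a read, the most genes of any kept cell.

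**Figure D4:**
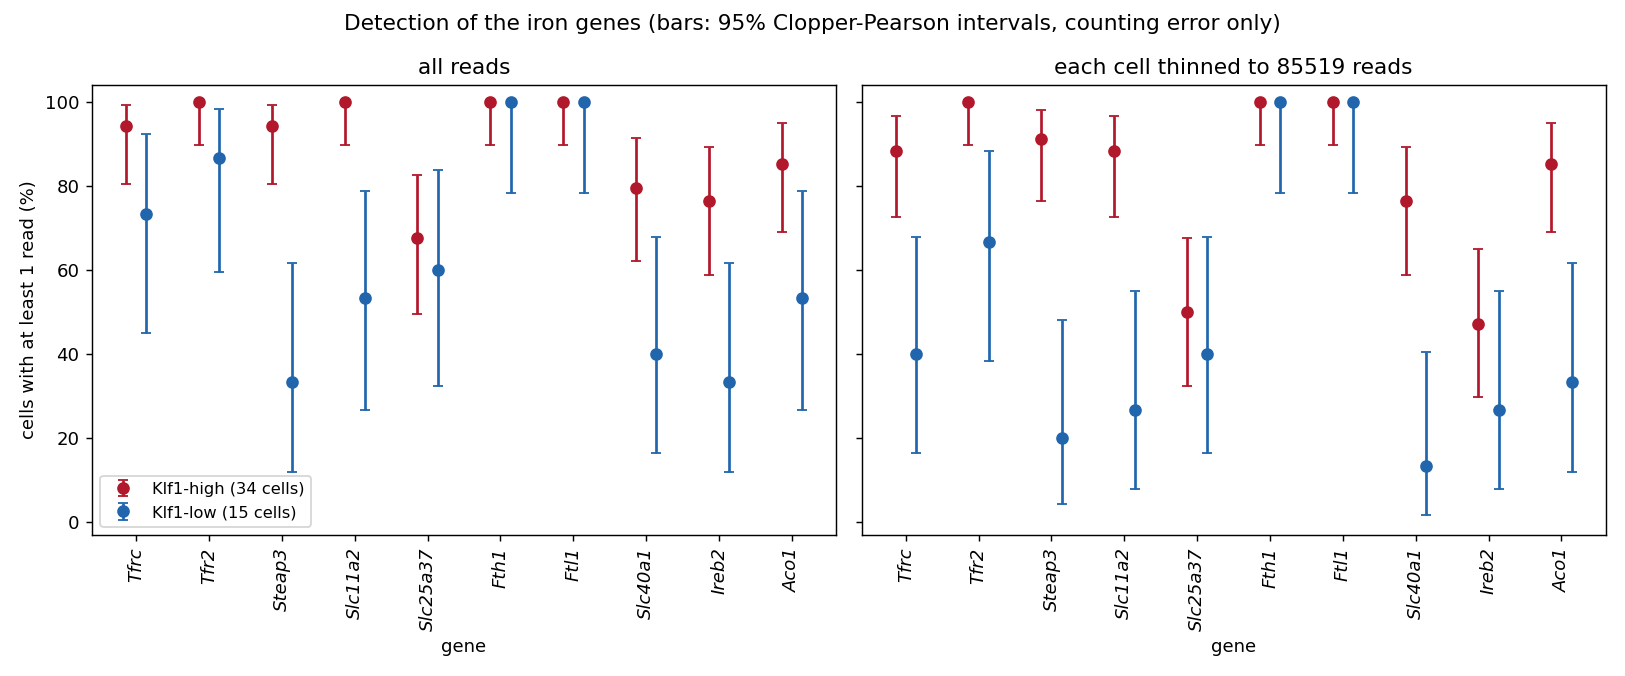
Share of cells with at least 1 read of each gene in Klf1-high and Klf1-low cells, with 95% Clopper-Pearson intervals, from all reads (left) and with each cell thinned to 85519 reads (right). Steap3 was at 91.2% and 20% after thinning, while Slc25a37 was at 50% and 40% with intervals that overlap widely.

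After thinning to equal depth, Slc11a2 was read in 88.2% of Klf1-high and 26.7% of Klf1-low cells, Slc40a1 in 76.5% and 13.3%, and Aco1 in 85.3% and 33.3%. The thinned shares of Slc25a37 were 50% (32.4 to 67.6) and 40% (16.3 to 67.7), and those of Ireb2 47.1% (29.8 to 64.9) and 26.7% (7.79 to 55.1), so a difference in detection of these 2 genes was not detectable at this depth. Mean levels thinned to 85519 reads stayed near the unthinned ones. Tfrc was at 162 and 51.5 CPM, Steap3 at 255 and 34.3 CPM and Slc40a1 at 80.1 and 5.46 CPM.

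Over the 49 cells, the 45 pairs of genes had a mean Spearman correlation of 0.196, from -0.17 to 0.61, and the mean over all pairs of 6900 widely read genes was 0.0709. Within the Klf1-high cells the mean was 0.128 and within the Klf1-low cells 0.0733. The correlations are descriptions, since the cells share 1 sample and differ in depth. Tfrc and Fth1 were the closest pair at 0.61, and at 0.66 within the Klf1-high cells. Fth1 and Ftl1 were at 0.48 over all cells and also 0.66 within Klf1-high cells. Tfrc with Steap3 (0.53), Tfrc with Slc40a1 (0.53), Fth1 with Slc40a1 (0.55) and Steap3 with Slc40a1 (0.51) made up the other 4 of the 5 pairs at 0.5 or more, a level that 0.478% of all pairs of the 6900 genes reached. Within Klf1-high cells these other 4 were at 0.45, 0.39, 0.49 and 0.18, so none of them stayed at 0.5. Tfrc, Steap3 and Slc40a1 were higher in Klf1-high cells, so ranks over all 49 cells include that step between classes. The 5 pairs over all cells involve an importer, the reductase, a ferritin chain and the exporter. Tfr2 reached at most 0.24, with Slc40a1, and Slc25a37 at most 0.22, with Steap3. Fth1 also went with the number of genes read (0.58) and the mitochondrial share (0.40), and Tfrc likewise (0.58 and 0.41), so these pairs share a technical measure and its part was not tested. In Klf1-low cells, where n is 15, Tfr2 was inverse to Slc11a2 (-0.60), Aco1 (-0.56) and Steap3 (-0.52), the lowest of the 45 pairs there. Steap3 had no read in 10 of these cells, and Slc11a2 and Aco1 had none in 7 each. These values therefore rest on few cells.

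**Figure D5:**
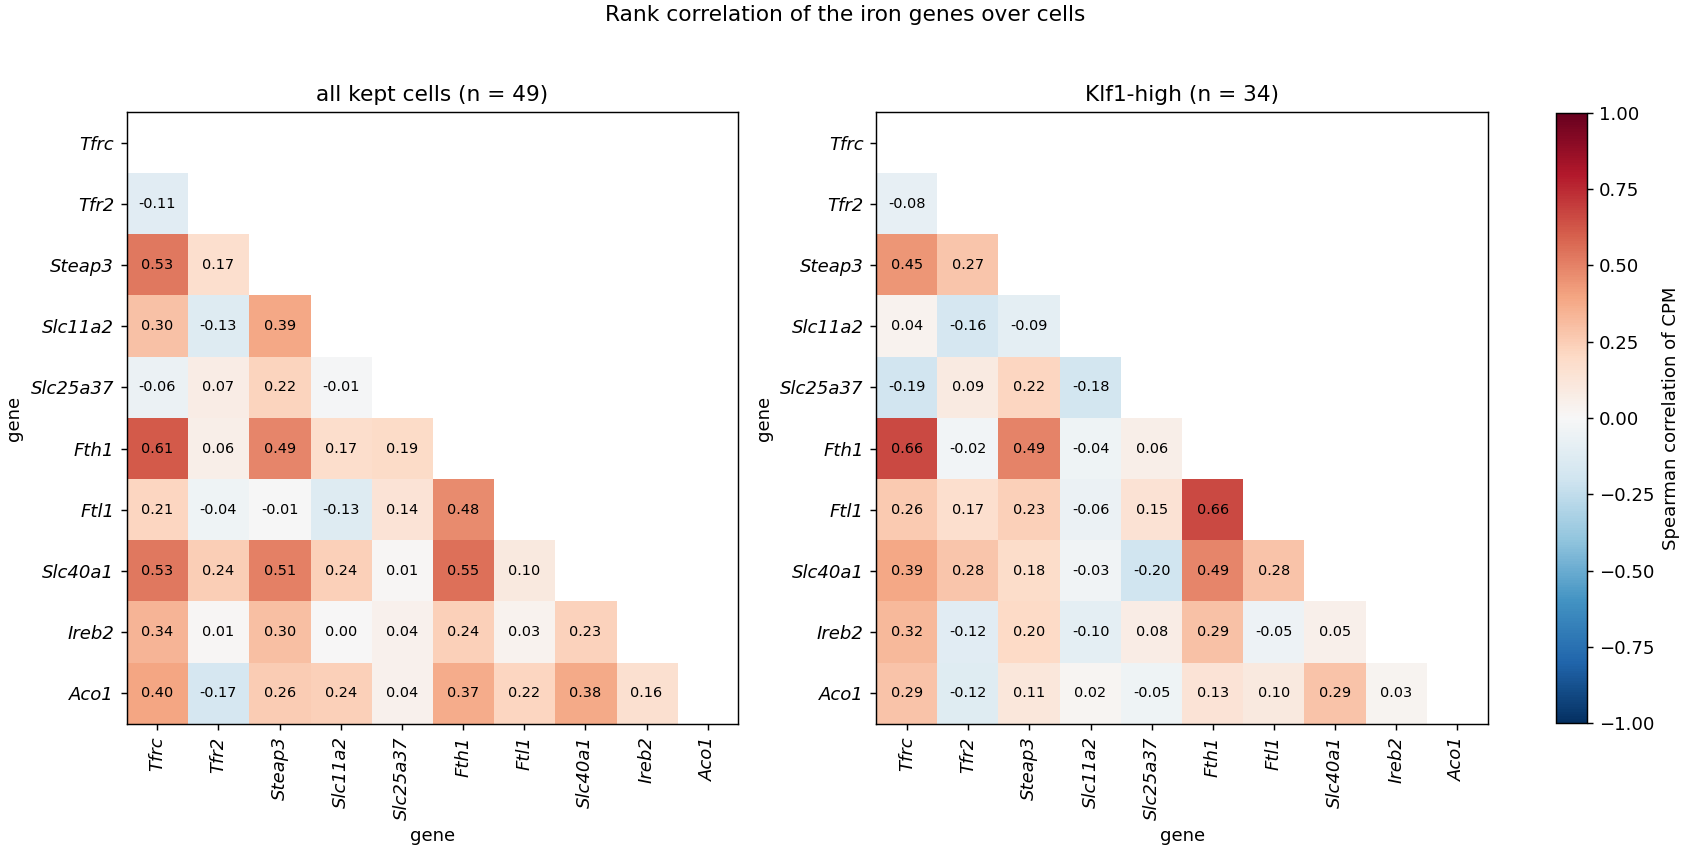
Spearman correlation of CPM between each pair of iron genes over all 49 kept cells (left) and over the 34 Klf1-high cells (right). Tfrc with Fth1 is the darkest square on the left at 0.61, and on the right it is joined by Fth1 with Ftl1 at 0.66.

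Among 6374 genes that averaged 20 CPM or more and were read in 25 cells or more, the 3 closest to each member in rank over the 49 cells were recorded. They were picked as the highest of 6374 values, and how high such values reach without any relation was not estimated. Fth1 was closest to C1qtnf12 (0.78, and 0.87 within Klf1-high cells), Aplp2 (0.74) and the Rh blood group gene Rhd (0.73). Slc40a1 was closest to Blvrb (0.70), which encodes a biliverdin reductase, Park7 (0.70) and the membrane skeleton gene Add2 (0.66). Steap3 went with Usp39 (0.75), the erythropoietin receptor gene Epor (0.75) and Nup85 (0.74), and Tfrc with Nxpe2 (0.68), C1qtnf12 (0.67) and Mtfp1 (0.67). C1qtnf12 thus stood in the lists of both Tfrc and Fth1. The leading genes were Scfd1 for Tfr2 (0.64), Dnaja3 for Slc11a2 (0.67), Pisd for Slc25a37 (0.61), Zup1 for Ftl1 (0.48), Pmm2 for Ireb2 (0.66) and Cmah for Aco1 (0.59). Ranks over all 49 cells include the step between Klf1 classes, and within Klf1-high cells these leading values ranged from 0.34 for Cmah to 0.87 for C1qtnf12.

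Of 54 other iron genes with an entry, 36 averaged 5 CPM or more, of which 11 were 2-fold higher in Klf1-high cells and 5 were 2-fold lower, against 22.3% and 23.6% of all tested genes. The median log2 ratio of the 36 was 0.19. Genes of mitochondrial iron and iron-sulphur cluster assembly made up most of the higher ones, with 8 of 17 higher and 1 lower. Glrx5, a glutaredoxin that hands clusters on, was at 353 ± 194 and 119 ± 97.0 CPM (2.945-fold). The chaperone gene Hspa9 was at 682 ± 246 and 288 ± 249 CPM (2.36-fold). Isca2 (2.65-fold), Iba57 (2.45-fold, 4.27-fold without cell 27), Bola3 (2.26-fold) and the desulphurase gene Nfs1 (2.11-fold) were also higher. Leaving out any of 11 cells took Nfs1 under 2-fold, with a lowest value of 1.96, and without cell 47 it was 3.98-fold. Isca1 did not reach 2-fold, at 181 ± 128 and 195 ± 195 CPM, and its direction turned without cell 7, 20 or 27. Slc25a28, mitoferrin-2, was the lower gene at 14.1 ± 20.2 and 42.9 ± 104 CPM (2.90-fold lower), and it was under 2-fold without cell 34 (1.67) or cell 33 (1.74).

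Genes of storage and release ran the other way in 1 case. Ncoa4, whose protein carries ferritin to lysosomes for iron release, ranged up to 1173 CPM in cell 16 and was at 106 ± 107 CPM in Klf1-high and 396 ± 368 CPM in Klf1-low cells (3.69-fold lower in Klf1-high). Its medians were 79.2 and 388 CPM. The chaperone genes Pcbp1 (216 ± 87.05 and 168 ± 159 CPM) and Pcbp2 (210 ± 124 and 242 ± 218 CPM) and the ubiquitin ligase gene Herc2 (42.6 ± 56.6 and 77.9 ± 208 CPM) stayed within 2-fold with all kept cells. Herc2 was 2.04-fold lower in Klf1-high cells without cell 35, 2.02-fold lower without cell 42 and 1.65-fold higher without cell 41, and the direction of Pcbp2 turned without cell 33.

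Among other uptake genes, Trf, which encodes transferrin itself, was at least 10 CPM in 7 of 15 Klf1-low cells and 2 of 34 Klf1-high cells. It was highest in cell 34 at 1759 CPM, and the Klf1-low Cd34-positive cells, which leave that cell out, were at 218 ± 282 CPM against 3.19 ± 13.6 CPM in Klf1-high cells. The ratio was 73.3-fold lower in Klf1-high cells, 48.6-fold without cell 34 and 158-fold without cell 28. Hfe, named after its values were seen, was at 687 CPM in cell 34, and without that cell it was 1.44-fold lower in Klf1-high cells. The metal importer gene Slc39a8 was at 34.5 ± 41.5 and 12.2 ± 33.1 CPM (2.70-fold, 5.94-fold without cell 52). Snx3 (348 ± 103 and 300 ± 455 CPM), Vps35 (218 ± 139 and 287 ± 325 CPM) and Exoc6 (69.5 ± 62.3 and 98.0 ± 194 CPM), which serve the recycling of transferrin receptor vesicles, stayed within 2-fold, and Exoc6 was 1.32-fold higher in Klf1-high cells without cell 51.

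In export and haem handling, the haem exporter gene Flvcr1 was at 41.5 ± 54.6 and 4.14 ± 12.9 CPM (8.28-fold, 23.2-fold without cell 21). The haem oxygenase genes differed, with Hmox2 at 54.5 ± 49.1 and 137 ± 150 CPM (2.48-fold lower in Klf1-high) and Hmox1, named after its values were seen, read in 9 Klf1-high cells at a class mean of 15.1 ± 36.9 CPM and in 0 of 15 Klf1-low cells. Hmox1 is counted among the higher genes through the 1 CPM added to each mean, and no fold is given for it. The haem transporter gene Slc48a1 was at 301 ± 173 and 324 ± 276 CPM and Abcg2 at 111 ± 99.2 and 63.6 ± 125 CPM. Slc48a1 was 1.14-fold higher in Klf1-high cells without cell 16, and Abcg2 passed 2-fold without cell 7 (2.89-fold higher) or cell 47 (2.27-fold higher). Of the 3 sensing genes above 5 CPM, none passed 2-fold with all kept cells. Sdhb, an iron-sulphur subunit of succinate dehydrogenase, was at 278 ± 114 and 191 ± 116 CPM, and Fbxl5, which targets IRP2 for degradation, at 38.2 ± 48.01 and 42.3 ± 110 CPM. Without cell 32, Fbxl5 was 2.37-fold higher in Klf1-high cells. Erfe, the erythroid hormone gene that lowers hepcidin, averaged 3.13 CPM over the kept cells and reached 10 CPM only in cell 44. The hepcidin gene Hamp had no read.

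Because Klf1 binds CACCC boxes and GATA factors bind GATA boxes, the 250 bases before each RefSeq start (GRCm38.p6) were searched on both strands for CCACACCC and AGATAA. Starts were listed for 7 of the 10 genes. Steap3 held 1 AGATAA, 45 bases before a start, and Tfr2 held 1 CCACACCC, 22 bases before a start, both on the strand opposite to the gene. Of 27025 genes with a listed start, 11.4% held AGATAA and 3.68% held CCACACCC in at least 1 such window. A match is a description of the letters and not a site of binding. The matches are in capitals as they read on the strand of the gene.
Steap3, chr1:120271108-120271137, minus strand: gtccggagagtgTTATCTccctccagttat
Tfr2, chr5:137569806-137569835, plus strand: gcgtgctctagtGGGTGTGGcctcagtagg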

How the data were processed

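The authors deposited expected counts per gene for 28786 entries in 52 libraries, made with Trim Galore 0.5.0 and Salmon 0.03.1 on GRCm38, per the submitters' processing notes, which print the Salmon version so. The notes name no transcript set, strand setting or earlier filter. Expected counts were then rounded to reads and divided by the total of each cell to give CPM. A kept cell had at least 50000 reads, 1000 genes and at most 20% mitochondrial reads, which left out cells 5, 10 and 12. No doublet caller was run on 52 wells. Kept cells held 85519 to 12446477 reads, and 0 of 15 cells, taken as at most 3, allows a share of up to 20%. Ratios are of mean CPM with 1 CPM added, for 9874 genes that averaged 5 CPM or more. Their calculation was tested on simulated counts with known shifts, which does not show how stable a ratio is to single cells. Thinning drew reads without replacement (seed 1). Named genes were the 10 members, the 4 highest of each iron list, any list gene past 2-fold that averaged 20 CPM or more, and the 3 genes closest to each member. Some list genes that this rule names are not reported here. The members and lists were chosen with earlier results of these data known. Symbols and coordinates came from GENCODE M21, which is on GRCm38, and promoters from RefSeq (GRCm38.p6). Python 3.11.15, pandas 2.3.3, numpy 2.4.6 and scipy 1.17.1 were used.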

Additional observations from a re-analysis of the deposited data

Results flagged for a closer look

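The 3 cells left out by the filter, which were used only in the alternative with all 52 cells, also held iron gene reads above the 3 reads that a count of 0 allows. Cell 5, with 307220 reads and 28.3% mitochondrial reads, had 6 of the 10 genes: Tfrc at 625 CPM, Tfr2 at 1501 CPM, Steap3 at 221 CPM, Slc11a2 at 358 CPM, Fth1 at 1390 CPM and Ftl1 at 850 CPM. Its Tfrc and Tfr2 were above those of every kept cell. Cell 10, with 39692 reads, had 4 of the 10: Slc25a37 at 680 CPM (27 reads), Fth1 at 504 CPM, Ftl1 at 151 CPM and Slc40a1 at 428 CPM (17 reads). Its Slc25a37 and Slc40a1 were above those of every kept cell. Cell 12, with 32439 reads, had 7 of the 10: Tfrc, Steap3 and Aco1 at 185 CPM each (6 reads), Tfr2 at 308 CPM, Slc11a2 at 123 CPM (4 reads), Fth1 at 709.02 CPM and Ftl1 at 925 CPM.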

How the results depend on the processing

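All 10 genes remained read in at least 50% of cells under 8 of 10 alternatives, and 8 did at 10 CPM and after thinning to the shallowest cell. The count of 4 genes 2-fold higher in Klf1-high cells was 7 with the difference of mean log2(CPM + 1) and 7 with the ratio of medians, and 4 to 5 with any 1 cell left out. The count of 0 lower was 1 with all 52 cells and 1 with Klf1 split at 50 CPM, Slc25a37 in both (log2 ratio -1.56 and -1.15). The count of 0 higher in Cd34-positive cells was 1 (Slc25a37, log2 ratio 1.10) after thinning to the shallowest cell and 0 to 1 with any 1 cell left out. The count of 5 lower was 2 with Cd34 at 1 read or more, 3 without cell 21 and 3 to 5 with any 1 cell left out. The mean pairwise correlation was 0.0733 in Klf1-low cells only, and 0.175 to 0.205 with any 1 cell left out. Leaving out each cell, leaving out cell 34 or 21, and thinning at 400000 reads or more were chosen after seeing the data. The iron-responsive element matches were in the same 4 genes with Watson-Crick pairs only and with no C before the stem required. Depth limits Ireb2 and Slc25a37 most, whose shares of cells with a read moved from 63.3% to 40.8% and from 65.3% to 46.9% with thinning to the shallowest cell. No paired analysis was possible because all cells form 1 group.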
